A study of Mus musculus with 2 samples.

Results

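Endothelial cells, which line blood and lymphatic vessels, made up 75 of the 1944 barcodes kept from the olfactory mucosa of an OR1A1 transgenic mouse and 90 of the 1282 kept from a wild-type mouse, or 165 of 3226 in all. A barcode was kept with 3000 or more UMIs (unique molecular identifiers, each standing for 1 captured RNA molecule), 500 or more genes and no more than 10% mitochondrial UMIs. It was taken as endothelial when Flt1, Cdh5 and Pecam1 together had at least 5 UMIs with 2 or more of these 3 genes detected, when Ptprc (the pan-leukocyte CD45) had 0 UMIs, and when Col1a1 with Col1a2 (fibroblast collagen) and Omp (mature olfactory neurons) each took less than 0.1% of the UMIs. The cells were thus chosen by the UMIs of these genes, whose levels are a description only.

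Endothelial cells are joined by VE-cadherin and claudin 5 and read the VEGF, angiopoietin, Notch and BMP signals that set where arteries, capillaries, veins and lymphatics form. In most organs their capillaries are open to small solutes, in part through diaphragm-covered openings that need PLVAP, whereas the vessels of the brain are sealed and carry glucose, amino acids and lipids across with dedicated transporters. The olfactory mucosa combines a neuroepithelium with a lamina propria rich in blood vessels, lymphatics, glands and axon bundles.

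The transgenic library came from the olfactory epithelium of a 9-week-old female with the genotype Tg(Or8a1-OR1A1,-MAPT/mCherry)D736Feins/+, of the line of that name with the suffix /J. The wild-type library came from an 8-week-old female with the genotype WT, whose strain label crosses 10G4-V2.2-#7/Jax with Bl6/129SF1/J. The study compared odorant receptor expression in sensory neurons, and the vessel cells are those that came along through enzyme digestion and straining. With 1 library per group, genotype, strain, age and library cannot be told apart, no test was possible, and every interval below is a 95% interval for counting error only.

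The members carried 1336166 UMIs in the transgenic and 1183378 UMIs in the wild-type library, with medians of 11783 UMIs per cell (3600 to 98985) and 8630.5 UMIs per cell (3518 to 57848). Endothelial cells were 3.86% of kept barcodes in the transgenic library (3.05% to 4.81%, Clopper-Pearson) and 7.02% in the wild-type library (5.68% to 8.56%). Of the barcodes that met the 3-gene rule, 4 of 79 transgenic and 4 of 94 wild-type barcodes were dropped for leukocyte, fibroblast or neuron RNA. The summed marker UMIs had a median of 42 in transgenic and 34 in wild-type members. No barcode sat exactly at 5 marker UMIs. Just inside the limit, 3 transgenic and 6 wild-type members had 6 to 9 marker UMIs, and just outside it 1 wild-type barcode had 4, together with 13 UMIs of Cldn5. Of the kept barcode sequences, 1 occurred in both libraries, and 0 member barcodes did.

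Of the 5 markers named for these cells, Cldn5 and Vwf were not used to choose them. Cldn5, the claudin that seals endothelial tight junctions, stood at 2970 UMIs per 1000000 UMIs of the group (CPM; exact Poisson interval 2880 to 3070) in transgenic members, against 3250 CPM (3150 to 3360) in wild-type members, and was found in 71 of 75 and 74 of 90 cells. Among mature neurons, which should lack it, 2.58% of transgenic and 2.56% of wild-type cells had a Cldn5 UMI, at medians of 14323 and 12503 UMIs per cell. The neurons, like the fibroblasts and macrophages below, were taken only from barcodes nearly free of Flt1, Cdh5 and Pecam1 UMIs. Low endothelial levels in these sets are thus partly set by that choice. Vwf, the carrier of clotting factor VIII, stood at 474 CPM (438 to 512) in transgenic against 310 CPM (279 to 344) in wild-type members and was found in 54 of 75 and 46 of 90 cells. Its share was 2.09% of transgenic and 2.17% of wild-type neurons. Cldn5 had no UMI in 4 transgenic and 16 wild-type members.

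A list of 25 pan-endothelial genes was measured in full, meaning that each gene reached at least 20 CPM and 50 UMIs in the members of at least 1 library. In both libraries 24 of the 25 were at least 4-fold higher in endothelial cells than in all other kept barcodes, and over all 4881 measured genes outside the rule 658 were (13.5%). The exception was Tspan7, a tetraspanin, with 38.9 CPM in transgenic against 20.3 CPM in wild-type members, while the other barcodes had 217 and 199 CPM. Egfl7, a secreted vessel factor, had a UMI in all 75 transgenic and all 90 wild-type members. Ptprb, the phosphatase VE-PTP that restrains Tie2 and VE-cadherin, stood at 1060 CPM in transgenic against 994 CPM in wild-type members, with 0 CPM in the fibroblasts and macrophages of either library. None of the 25 differed 2-fold between the libraries, where 3.47% of 4897 measured genes did. The plot of pan-endothelial genes shows the gap between members and the rest.

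**Figure D1:**
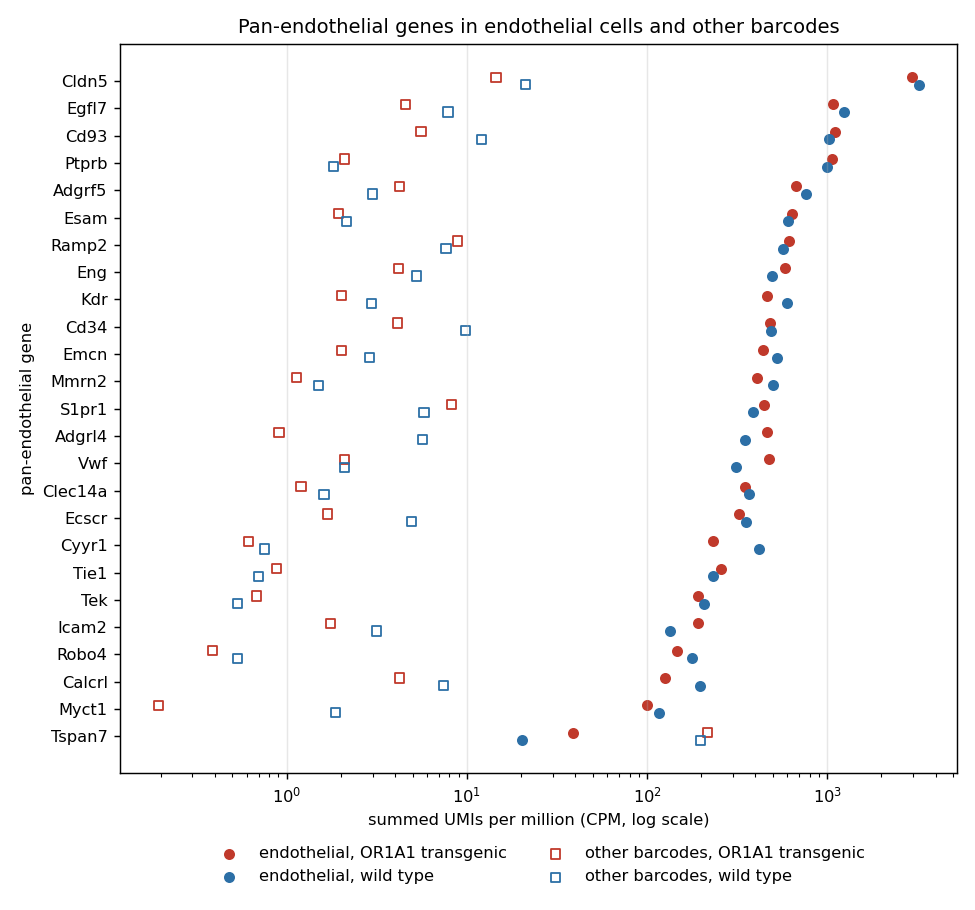
Summed CPM (log scale) of the 25 pan-endothelial genes in endothelial cells (filled circles) and all other kept barcodes (open squares) of the OR1A1 transgenic (red) and wild-type (blue) libraries. Every gene but Tspan7 lies far to the right in endothelial cells, and the circles of both libraries lie close together.

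The same comparison was made with 2 other stromal cell sets. Both were limited to barcodes with at most 1 UMI of Flt1, Cdh5 and Pecam1 together. The counts against them are therefore a description and partly follow from that limit. Against fibroblasts (88 transgenic and 46 wild-type barcodes with collagen I) 436 genes were at least 4-fold higher in both libraries (8.93%), against macrophages with C1q (101 and 41 barcodes) 697 were (14.3%), and 255 passed all 3 comparisons. The highest ratios to the other barcodes, with 1 UMI added to each sum, belonged to Gpihbp1, Abcb1a, Sele, Sox17, Cytl1, Tmem252, Ptprb, She, Foxf1, Grrp1, Sox18, Slco1a4, Fendrr, Ly6c1 and Cyyr1, ranked by the smaller of the 2 libraries' ratios. Gpihbp1, which carries lipoprotein lipase to the capillary surface, had 68 UMIs in transgenic and 133 UMIs in wild-type members and 0 in the other barcodes. Abcb1a, the P-glycoprotein drug exporter, stood at 1070 CPM in transgenic against 1080 CPM in wild-type members, and the other barcodes had 1.26 and 1.02 CPM. Among the 10 genes with the highest CPM that were neither mitochondrial nor ribosomal was Mal, a membrane raft proteolipid, at 5530 CPM in transgenic against 3420 CPM in wild-type members, with 16.5% and 9.00% of its UMIs in a single cell. It was found in 59 of 75 transgenic and 58 of 90 wild-type members, and its ratio to the other barcodes was 151-fold and 153-fold.

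Of 29 endothelial transcription factors, 24 were measured and 21 were at least 4-fold higher than in the other barcodes of both libraries, as were 13.5% of all measured genes. The SoxF factors, which act in arterial and lymphatic specification, were all among them. Sox17 stood at 315 CPM in transgenic against 395 CPM in wild-type members, Sox18 at 210 and 271 CPM, and Sox7 at 65.1 and 57.5 CPM. The ETS factor Erg, a keeper of endothelial identity, stood at 188 CPM in transgenic against 191 CPM in wild-type members and was found in 54 of 75 and 65 of 90 cells. Foxf1, a forkhead factor known from lung and gut vessels, stood at 96.5 CPM in transgenic against 72.7 CPM in wild-type members and was at 0 CPM in the fibroblasts of both libraries. Klf2 and Klf4, induced by laminar flow, reached 2620 and 1310 CPM in transgenic members, and 1900 and 1000 CPM in wild-type members. Between the libraries 0 of the 24 were 2-fold higher and 2 were lower, the lymphatic factor Prox1 and the homeobox factor Hlx, at log2 ratios of -1.54 and -1.27, while 1.57% of all measured genes were lower. Prox1 was at 0.64 on CPM standardised to the same shares of the cell clusters described below, and the libraries held 3 transgenic and 7 wild-type lymphatic-like cells.

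ETS factors such as Erg bind DNA at sites with the core letters GGAA, and promoters of pan-endothelial genes are shown for that reason. Of the 25 genes, 16 matched a RefSeq promoter table (GRCm38.p6, 250 bases before to 50 after the start), with 19 promoters. The letters CAGGAA, on either strand, occurred in 14 of these 19 (73.7%), against 30.6% of all 32851 promoters. Of the 658 genes at least 4-fold higher in endothelial cells, 490 matched, and 35.2% of their 665 promoters held it. Because fewer than 80% of either gene set had a promoter in the table, the comparison is void for the sets, and the shares describe the matched promoters only. It was 1 of 8 searches, the others being for GGAA and CAGGAAG and CAGGAAGT, for CCGGAAGT and ACCGGAAG, and for AACAATG and TATAAA, and all but the last pair share the core and overlap. The bare core was in 94.7% of the 19 and 96.0% of all promoters, and CCGGAAGT in 0 of the 19 and 3.89% of all. A match is a run of letters and not a bound site. Egfl7, Adgrf5 and Eng were picked from the list genes with a match, each at a start that had one, and Cldn5 was added. The promoters shown are therefore no sample of the list. Capitals mark CAGGAA or its reverse complement in 4 promoters of the list, each 300 bases, with 2, 2, 1 and 0 matches.
Egfl7, chr2:26580833-26581132, plus strand: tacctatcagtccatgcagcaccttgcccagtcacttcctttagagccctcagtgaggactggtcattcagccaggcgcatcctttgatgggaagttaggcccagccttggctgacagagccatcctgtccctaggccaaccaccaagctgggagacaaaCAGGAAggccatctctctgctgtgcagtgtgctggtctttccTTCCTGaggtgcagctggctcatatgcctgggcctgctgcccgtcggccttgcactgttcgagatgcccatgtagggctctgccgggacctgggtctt
Adgrf5, chr17:43360181-43360480, plus strand: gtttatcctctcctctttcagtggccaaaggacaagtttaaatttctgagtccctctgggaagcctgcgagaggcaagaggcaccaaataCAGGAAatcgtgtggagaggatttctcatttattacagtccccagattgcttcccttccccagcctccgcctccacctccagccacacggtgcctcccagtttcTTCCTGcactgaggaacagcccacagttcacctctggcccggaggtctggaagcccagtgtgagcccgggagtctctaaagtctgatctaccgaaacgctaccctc
Eng, chr2:32646345-32646644, plus strand: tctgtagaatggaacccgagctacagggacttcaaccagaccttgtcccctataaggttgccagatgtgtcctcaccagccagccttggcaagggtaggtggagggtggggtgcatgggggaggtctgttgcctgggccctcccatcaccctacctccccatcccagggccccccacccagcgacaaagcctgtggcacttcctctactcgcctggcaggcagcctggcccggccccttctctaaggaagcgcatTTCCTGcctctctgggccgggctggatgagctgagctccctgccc
Cldn5, chr16:18776597-18776896, plus strand: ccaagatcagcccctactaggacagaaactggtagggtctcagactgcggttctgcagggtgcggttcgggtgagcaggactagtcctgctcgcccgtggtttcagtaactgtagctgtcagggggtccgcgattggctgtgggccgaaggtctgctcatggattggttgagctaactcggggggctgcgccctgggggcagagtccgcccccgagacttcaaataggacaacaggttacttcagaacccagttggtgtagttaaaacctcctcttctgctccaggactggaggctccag

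Of 10 VEGF receptor and ligand genes 6 were measured, and between the libraries 0 were 2-fold higher and 1 lower (1.57% of all measured genes), the lymphatic receptor Flt4. Its log2 ratio was -1.47, and -0.50 on the standardised scale, with 61.7% of its wild-type UMIs in the 7 lymphatic-like cells. Kdr, the main VEGF receptor, stood at 464 CPM in transgenic against 599 CPM in wild-type members, and the co-receptor Nrp1 at 422 and 527 CPM. Of the ligands, Vegfc was measured, at 62.1 CPM in transgenic against 70.1 CPM in wild-type members, while Vegfa, Vegfb, Vegfd and Pgf were below the limit for measuring. In the angiopoietin pathway the receptors Tek and Tie1 stood at 192 and 257 CPM in transgenic members, and at 208 and 231 CPM in wild-type members. The Tek ligand Angpt1 was at 2.25 CPM in transgenic against 5.07 CPM in wild-type members, and Angpt4 at 0 in both.

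Of the Notch receptors, Notch1 stood at 269 CPM in transgenic against 270 CPM in wild-type members, the endothelial receptor Notch4 at 53.1 and 65.1 CPM, and its arterial ligand Dll4 at 85.3 and 112 CPM. Of 19 Notch genes 15 were measured and none differed 2-fold between libraries, where 3.47% of all measured genes did. The BMP9 receptors Acvrl1 (ALK1) and Eng (endoglin), mutated in human hereditary telangiectasia, stood at 309 and 583 CPM in transgenic members, and at 303 and 494 CPM in wild-type members. Their target Id1 stood at 1150 CPM in transgenic against 702 CPM in wild-type members, a log2 ratio of 0.71 (0.59 to 0.84). The Wnt receptor Fzd4 and the Wnt effector Lef1 stood at 181 and 509 CPM in transgenic members, and at 187 and 583 CPM in wild-type members. Lef1 was 164-fold and 232-fold over the other barcodes.

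The 165 cells were clustered together into 9 clusters, of which 4 could be named from arterial, capillary, venous or lymphatic markers. The clusters were built from these genes, so their levels describe the clusters and are no test. Cell numbers are given to show what each cluster rests on, and cluster sizes were not compared between the libraries, because defining genes differed between them.

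The arterial-like cluster held 22 cells (11 transgenic and 11 wild-type). Its leading genes were Cytl1, Pi16, Tppp3, Gm35167, Pthlh, Atp2b2, Plek2 and Alpl. The gap junction genes Gja4 and Gja5 stood at 293 and 102 CPM, the semaphorin Sema3g at 440 CPM and the Notch ligand Jag1 at 533 CPM. Of the 19 arterial list genes, 14 were at least 2-fold higher there than in the other members (5 CPM added). Some list genes stood higher in another cluster. Dll4 stood at 89.3 CPM against 164 CPM in cluster 4, and Cxcl12 at 561 against 3110 CPM there. Efnb2 stood at 166 CPM against 381 CPM in the capillary-like cluster, and Unc5b at 28.7 against 317 CPM in the lymphatic-like cluster. Mgp, an inhibitor of BMP signals and of calcification, reached 3940 CPM. It was also high in the venous and postcapillary-like cluster (3300 CPM) and in cluster 7 (2660 CPM).

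The venous and postcapillary-like cluster held 29 cells (17 transgenic and 12 wild-type). It was led by Fgl2, Clca3a1, Ackr1, Aebp1, Chp2, Fam174b, Slco2a1 and Wipf3. Ackr1, the chemokine-binding receptor of venules, was found in 16 of the 29 cells, Selp (P-selectin) stood at 620 CPM and Vwf at 1590 CPM. Plvap stood at 1160 CPM and was found in 24 of the 29 cells.

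The capillary-like cluster held 18 cells (3 transgenic and 15 wild-type). It was led by Btnl9, Cyp26b1, Col13a1, Inhbb, Ramp3, Igfbp3, Cd24a and Slc43a3. Plvap had UMIs in all 18 cells and stood at 3470 CPM, Gpihbp1 at 739 CPM and the fatty acid binding protein gene Fabp4 at 1900 CPM. Cldn5 had UMIs in 5 of the 18 cells and stood at 45.7 CPM, against 1220 to 7420 CPM in the other 8 clusters. Vwf stood at 7.61 CPM and Lef1 at 0.

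The lymphatic-like cluster held 10 cells (3 transgenic and 7 wild-type). It was led by Ccl21a, Stab2, Mrc1, Osr1, Ptx3, Sema3a, Prox1 and Gm525. Ccl21a, the chemokine that draws dendritic cells into lymphatics, stood at 12700 CPM with UMIs in all 10 cells and in 0 cells of any other cluster. Prox1, the lymphatic master regulator, stood at 1120 CPM and the VEGF-C receptor Flt4 at 1310 CPM. Flt1, a rule gene, was at 0 CPM there. Lyve1, a hyaluronan receptor that marks initial lymphatics, was at 0, while Pdpn stood at 217 CPM.

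The other clusters stayed unnamed. Cluster 4 (6 transgenic and 16 wild-type cells) was led by Penk, Kit, Esm1, Gprc5b, Ddit4l, Adm, Ncoa7 and Igf1, with Cxcl12 at 3110 CPM and Esm1, a marker of angiogenic tip cells, at 333 CPM. Of its 22 cells, Penk, Ddit4l and Adm were each found in 4, Kit in 7, and Esm1 and Igf1 in 11. Gprc5b was found in 13 and Ncoa7 in 18. Cluster 9 (6 transgenic and 0 wild-type cells) was led by Slc38a5, Slco1c1, Slc22a8, Pmaip1, Slc16a1, Slc40a1, Car4 and Tpd52l1, several of them membrane transporters. With all 6 cells in 1 library, it may be that library and not a vessel type. Cluster 7 (6 transgenic and 5 wild-type cells, median 29541 UMIs) was led by mural genes such as Myh11, Ndufa4l2 and Higd1b. Clusters 1 (12 transgenic and 19 wild-type cells) and 6 (11 transgenic and 5 wild-type cells) were led by neuronal genes such as Uncx and by epithelial genes such as Sult1e1, each found in 3 to 8 cells of its cluster. The plot of gene lists by cluster gives the summed levels.

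**Figure D2:**
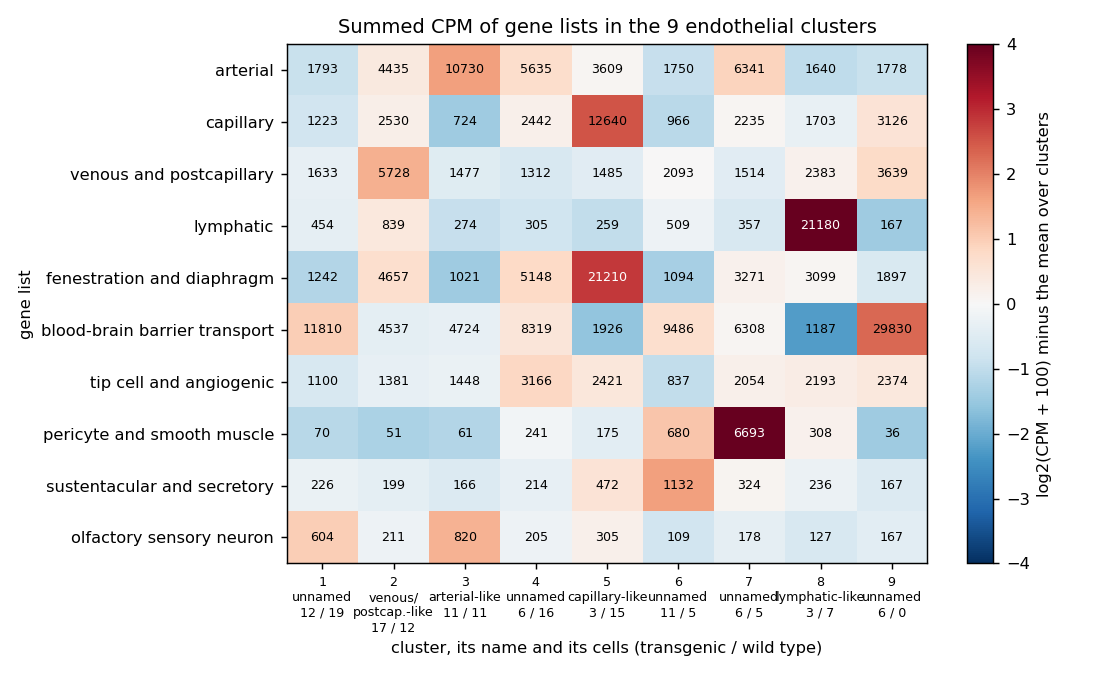
Summed CPM of 10 gene lists (rows) in the 9 endothelial clusters (columns, with transgenic and wild-type cell numbers), printed in each tile and coloured by log2(CPM + 100) minus the mean over clusters. Lymphatic genes reach 21180 CPM in cluster 8 and at most 839 elsewhere, and blood-brain barrier transport genes reach 29830 CPM in cluster 9.

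Barrier transport genes and the diaphragm gene Plvap varied across clusters. The list of 18 blood-brain barrier transport genes summed to 29830 CPM in cluster 9, 11810 CPM in cluster 1 and 9486 CPM in cluster 6, against 1926 CPM in the capillary-like and 1187 CPM in the lymphatic-like cluster. The list also holds genes that are not transporters, such as the junction gene Ocln and the chaperone gene Bsg. Bsg alone gave 13500 CPM of the sum in cluster 9, 3960 CPM in cluster 1 and 2330 CPM in cluster 6. The glucose transporter Slc2a1 (GLUT1) stood at 1760 CPM in cluster 1, 1770 CPM in cluster 6 and 1670 CPM in cluster 9, against 45.7 CPM in the capillary-like cluster. Mfsd2a, which carries DHA lipids across the blood-brain barrier, stood at 525 CPM in cluster 9 and 356 CPM in cluster 1, and at 0 in the venous, capillary and lymphatic-like clusters. Other genes of the list were spread otherwise. Abcg2 stood at 954 CPM in the venous and postcapillary-like cluster, against 735, 755 and 1280 CPM in clusters 1, 6 and 9. Slco1a4 stood at 436 CPM there, against 57.1, 56.8 and 1650 CPM. In cluster 9 the thyroid hormone transporter Slco1c1 was found in 6 of 6 cells, and Plvap in 0 of 6. That cluster's barrier total ran from 19500 to 53100 CPM per cell. Cluster 4 held both, with a barrier total of 8319 CPM and Plvap at 911 CPM in 12 of its 22 cells.

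Cell by cell, 4 transporters of the list were looked at, Mfsd2a, Slc2a1, Abcb1a and Slco1a4. Their shares were lower among cells with Plvap than among cells without it, by very different amounts. Mfsd2a was found in 8 of 76 cells with a Plvap UMI and in 56 of 89 cells without one. Slc2a1 was found in 28 of 76 cells with Plvap and in 83 of 89 cells without it. Cldn5 was found in 56 of 76 and in 89 of 89. Within the transgenic library the Slc2a1 shares were 53.3% of 30 cells with Plvap and 93.3% of 45 cells without, and within the wild-type library 26.1% of 46 and 93.2% of 44. With every cell thinned to 3000 UMIs, Slc2a1 was found in 9 of 66 cells with Plvap and 80 of 99 without, and Mfsd2a in 2 of 66 and 33 of 99. Abcb1a was less divided, at 50 of 76 cells with Plvap and 87 of 89 without. Slco1a4 was nearly even in the transgenic library at full depth only, at 40.0% of cells with Plvap and 44.4% without. In the wild-type library its full-depth shares were 15.2% and 40.9%. Thinned to 3000 UMIs, Slco1a4 was in 8.00% of transgenic cells with Plvap and 30.0% without. The thinned wild-type shares were 7.32% and 24.5%. Plvap itself was found in 8.23% of transgenic and 6.51% of wild-type neurons, and Slc2a1 in 31.4% and 20.1%.

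**Figure D3:**
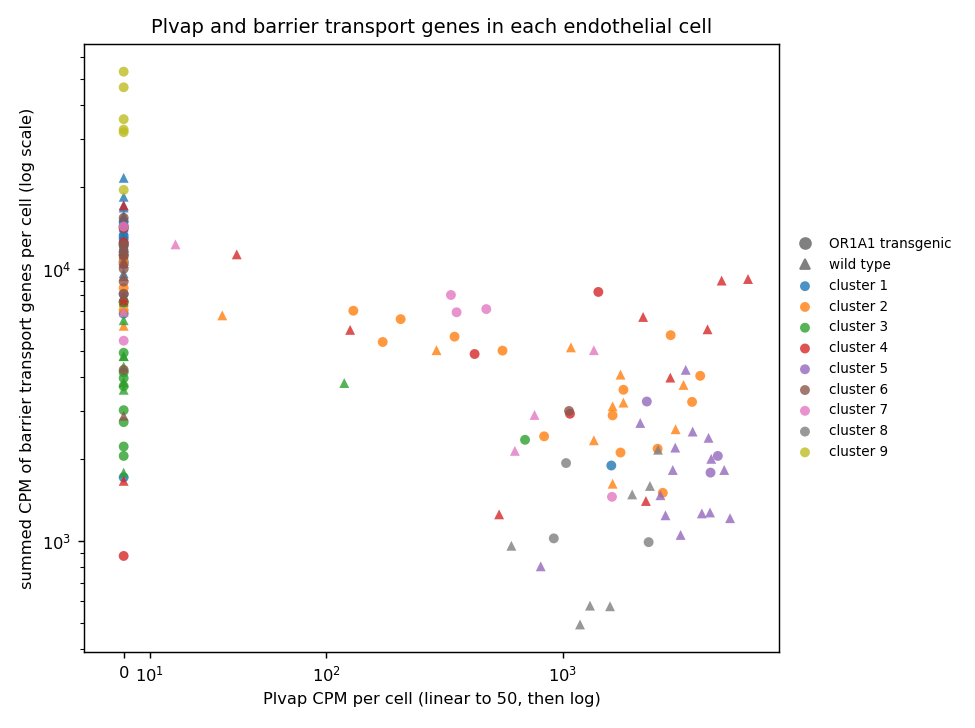
Plvap CPM (horizontal axis, linear to 50 and then log) against the summed CPM of 18 blood-brain barrier transport genes (vertical axis, log scale) in each of the 165 endothelial cells, coloured by cluster, with circles for OR1A1 transgenic and triangles for wild-type cells. Cells of clusters 5 and 8 lie low on the right, and the 6 cells of cluster 9 lie at the top left with Plvap at 0.

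Of 23 leukocyte adhesion genes 22 were in the files and 13 were measured. E-selectin (Sele) had UMIs in 20 of 75 transgenic and 20 of 90 wild-type members and in 0 neurons of either library, and P-selectin (Selp) in 26 and 26. Genes of high endothelial venules were at or near 0, since Madcam1 and Chst4 had 0 UMIs in both libraries and Glycam1 stood at 0.748 CPM in transgenic against 0 CPM in wild-type members. Podxl, a sialomucin of the luminal surface, stood at 277 CPM in transgenic against 564 CPM in wild-type members, a log2 ratio of -1.03 (-1.21 to -0.84). The class I antigen gene H2-D1 stood at 795 CPM in transgenic against 918 CPM in wild-type members. The class II invariant chain Cd74 stood at 16.5 CPM in transgenic and 18.6 CPM in those of the wild type, and the other barcodes had 363 and 1020 CPM.

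RNA of other cell types was small in most members. The rule had already removed barcodes with Ptprc or with more collagen I or Omp. Low leukocyte, fibroblast and neuron levels are thus partly set by it, whereas mural and epithelial RNA was not screened. In 9 of 75 transgenic and 10 of 90 wild-type members a list of another cell type took at least 0.2% of the UMIs, at a median of 21513 UMIs over these 19 cells, against 8743.5 UMIs in the other 146. The mural list accounted for 6 transgenic and 8 wild-type cells and reached 2.21% and 1.65% of a cell's UMIs. All 11 cells of cluster 7 were among the 19. Of the 14 mural genes, 8 were measured, Cnn1 was at 0 in both libraries, and the list came to 1263 CPM in transgenic against 1249 CPM in wild-type members. Summed over their lists, lymphocyte, platelet, macrophage and neutrophil genes, none of them measured, stood at 2.99, 9.73, 48.7 and 2.99 CPM in transgenic members and 1.69, 6.76, 54.9 and 71.8 CPM in wild-type members.

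Between the libraries, 93 of 4897 measured genes (1.90%) were at least 2-fold higher in transgenic members and 77 (1.57%) at least 2-fold lower. The median log2 ratio was -0.02. With every cell thinned to 3000 UMIs, 17 genes were higher and 19 lower. Single cells carried part of this: for 21 of the 93 higher genes, at least 50% of the transgenic UMIs came from 1 cell, and the same held for the wild-type UMIs of 5 of the 77 lower genes. Without the 19 cells with RNA of other cell types, 48 of the 93 and 45 of the 77 were still measured and at least 2-fold. On CPM standardised to the same cluster shares 51 and 49 remained at least 2-fold, and without each gene's richest cell 68 and 65 did. Under all 3 of these alternatives 27 and 32 did. The limit for measuring was applied anew only without the 19 cells, so genes could also be lost there by falling below it. These counts are thus not directly comparable.

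The genes with the largest ratios in each direction split by where their UMIs lay. Krt14 and Krt5, keratins of basal cells, had 62 and 50 UMIs in transgenic members, 98.4% and 98.0% of them in 1 cell of cluster 6, against 0 UMIs in wild-type members. Top2a, a gene of dividing cells, had 51 UMIs in transgenic members, 82.4% in 1 cell of cluster 7, against 2 UMIs in wild-type members. Sec14l3, a sustentacular cell gene, had 84.8% of its 145 transgenic UMIs in 1 cell, against 11 UMIs in wild-type members. Gap43, a gene of growing axons, had 75.5% of 53 transgenic UMIs in 1 cell, against 2 wild-type UMIs, and Arhgdig 56.9% of 58 transgenic UMIs, against 5 wild-type UMIs. On the lower side, Msln (5 UMIs in transgenic, 91 in wild-type members) and Wfdc18 (43 and 552 UMIs) had 97.8% and 94.6% of their wild-type UMIs in 1 cell of cluster 6. Without the richest cell of each library the log2 ratio was 0.82 for Krt14, 1.18 for Sec14l3 and 0.19 for Wfdc18. Summed lists of other cells were higher in transgenic members for sustentacular genes (528.4 against 279.7 CPM) and neuron genes (392.9 against 264.5 CPM). Basal genes (142.2 against 0.845 CPM) and fibroblast genes (180.4 against 71.83 CPM) were higher too. So were glia genes (80.08 against 32.11 CPM) and erythroid genes (134.0 against 79.43 CPM), while macrophage and neutrophil genes were lower. The part of these lists in the ratios was not tested.

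Slc38a5, an amino acid transporter of the blood-brain barrier, had 70 UMIs in 4 transgenic members, all in cluster 9, against 0 in wild-type members, at least 20.7-fold higher against a floor of 3 UMIs over the group. Slco1c1 had 123 UMIs in transgenic members, 94.3% in cluster 9, against 5 in wild-type members, a log2 ratio of 4.19 (3.18 to 6.09). Without cluster 9, Slc38a5 had 0 UMIs in both libraries, so there is no ratio outside that cluster. Stab2, a scavenger receptor, had 15 UMIs in 3 transgenic and 83 UMIs in 7 wild-type members, all lymphatic-like. Its log2 ratio was -2.57 (-3.54 to -1.84), and -0.48 on the standardised scale.

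Other differences did not rest on 1 cell. Grm4, a glutamate receptor gene, had 94 UMIs in 21 transgenic cells, against 4 UMIs in 4 wild-type cells, a log2 ratio of 4.07 (2.98 to 6.28), and in all 15 alternatives the ratio stayed between 1.75 and 4.09. Of its transgenic UMIs 72.3% lay in cluster 6. Its level over the other kept barcodes was 244-fold in the transgenic and 78.9-fold in the wild-type library, with 1 UMI added. Nxpe4 had 0 UMIs in transgenic members, against 56 UMIs in 29 wild-type cells, at least 21.1-fold lower against the floor of 3 UMIs. It had 42 UMIs in transgenic and 15 UMIs in wild-type neurons. Cp, ceruloplasmin, had 21 UMIs in 13 transgenic cells and 166 UMIs in 44 wild-type cells, a log2 ratio of -3.10 (-3.89 to -2.50), against ratios of -0.11 in fibroblasts and 1.20 in macrophages.

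**Figure D4:**
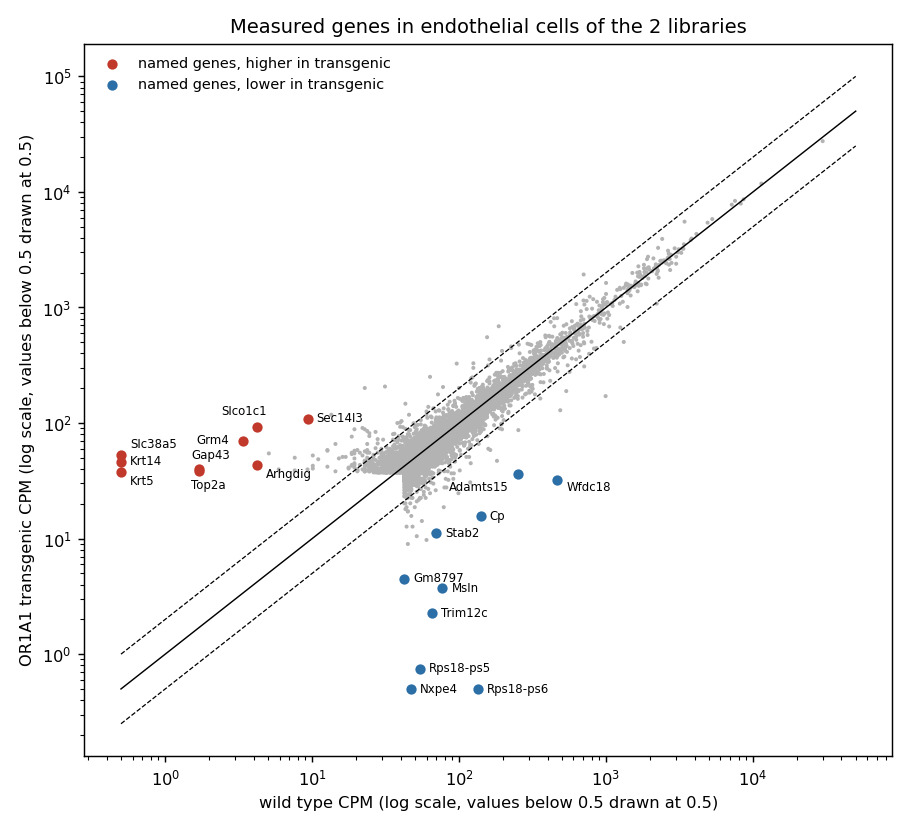
CPM of each of the 4897 measured genes in endothelial cells of the wild-type library (horizontal axis) and the OR1A1 transgenic library (vertical axis), both on log scales, with the genes described in the text among the 10 largest ratios in each direction in red (higher in transgenic) and blue (lower in transgenic). The solid line marks equal levels and the dashed lines a 2-fold difference, and most genes lie between the dashed lines, with 93 called higher and 77 lower.

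Of the 10 lowest ratios, 5 belonged to genes that were also low in the other transgenic cells. Trim12c, of an interferon-linked gene family, had 3 UMIs in transgenic and 77 UMIs in wild-type members, a log2 ratio of -4.46, and ratios of -3.67 in fibroblasts, -5.27 in macrophages and -2.93 in neurons. Adamts15, a matrix protease, had 48 and 297 UMIs, a ratio of -2.78, and ratios of -3.19, -2.42 and -2.29 in those cells. Gm8797 had a ratio of -3.04, and ratios of -2.72, -2.88 and -2.64. Rps18-ps6 and Rps18-ps5, ribosomal pseudogenes, had 0 and 1 UMIs in transgenic, against 160 and 64 UMIs in wild-type members, and in neurons Rps18-ps6 had 0 UMIs in transgenic against 412 UMIs in wild-type cells. Reads of such near-identical copies are hard to place, so their counts are uncertain.

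Vessel lists are given with values inside single clusters. Of 8 measured lymphatic genes 5 were at least 2-fold lower in transgenic members (1.57% of all measured genes) and 1 higher (1.90%), with a median log2 ratio of -1.31. All 228 transgenic and 1175 wild-type UMIs of Ccl21a lay in the 3 and 7 lymphatic-like cells, and within those cells it stood at 9630 CPM in transgenic against 13600 CPM in wild-type cells. Prox1 had a log2 ratio of -1.54 (-2.15 to -1.01), and stood at 1310 CPM in transgenic against 1070 CPM in wild-type lymphatic-like cells. Mmrn1, a matrix glycoprotein, had a ratio of -1.14, with 3170 CPM in transgenic against 2530 CPM in wild-type lymphatic-like cells. On the standardised scale the ratios were -0.49 for Ccl21a, 0.64 for Prox1 and 0.38 for Mmrn1. The higher gene was Fgl2, at 55.4 CPM in transgenic against 18.6 CPM in wild-type members, which led the venous and postcapillary-like cluster. Of 12 measured capillary genes 4 were lower and 1 higher (1.57% and 1.90% of all measured genes), with Btnl9 at 24.7 CPM in transgenic against 98.9 CPM in wild-type members and Fabp5 at 41.9 and 12.7 CPM. Of the transgenic UMIs of Btnl9 and Gpihbp1, 54.5% and 77.9% lay in cluster 7, whose cells carried mural RNA, and of the wild-type UMIs 94.0% and 66.9% lay in the capillary-like cluster.

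Of 9 measured fenestration and diaphragm genes 3 were at least 2-fold lower and 0 higher, against 1.57% and 1.90% of all measured genes. Igfbp3, a binding protein of insulin-like growth factors, stood at 129 CPM in transgenic against 488 CPM in wild-type members, a log2 ratio of -1.92 (-2.18 to -1.68). In the capillary-like cluster it stood at 632 CPM in the 3 transgenic against 4190 CPM in the 15 wild-type cells. Plvap stood at 558 CPM in transgenic against 698 CPM in wild-type members, a ratio of -0.32 (-0.47 to -0.18). Of 16 measured barrier transport genes 3 were higher (1.90% of all measured genes) and 0 lower, Slc38a5, Slco1c1 and Slco1a4. Slco1a4, an organic anion transporter, stood at 201 CPM in transgenic against 99.7 CPM in wild-type members, with 51.3% of its transgenic UMIs in cluster 9. Slc2a1 and Bsg were within 2-fold, with Slc2a1 at 1120 CPM in transgenic against 867 CPM in wild-type members and Bsg, a chaperone of lactate transporters, at 2450 and 2550 CPM. Cxcl12, the chemokine of the CXCR4 receptor, stood at 503 CPM in transgenic against 1320 CPM in wild-type members, and in fibroblasts at 708 and 1730 CPM. Over 15 alternatives the log2 ratio ran from -1.73 to -0.64 for Cxcl12 and from 0.34 to 1.98 for Slco1a4, so neither passed 2-fold in all.

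Several lists had most of their ratios on the same side of 0 while few genes passed 2-fold. Of 23 measured MHC and interferon genes 21 had a log2 ratio below 0, with a median of -0.42. The median over all measured genes was -0.02. Of the 23, 2 were at least 2-fold lower and 0 higher, against 1.57% and 1.90% of all measured genes. Gbp7, a guanylate-binding protein gene induced by interferon, was 1 of the 2 lower genes, at 77.1 CPM in transgenic against 156 CPM in wild-type members. Of 19 measured immediate early and heat shock genes 18 had a ratio above 0, with a median of 0.53. Of the 19, 0 passed 2-fold, where 3.47% of all measured genes did. Fos, an early response gene that is also induced by tissue dissociation, stood at 3920 CPM in transgenic against 2410 CPM in wild-type members, and the list summed to 23900 and 16860 CPM. The other kept barcodes had 10380 CPM of that list in transgenic and 8781 CPM in the wild-type library. Its part in the other results was not tested.

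Of 18 cell cycle genes 4 were measured and 3 were at least 2-fold higher in transgenic members (1.90% of all measured genes), Top2a, Hmgb2 and Stmn1. Hmgb2, a chromatin protein, stood at 177 CPM in transgenic against 71.8 CPM in wild-type members, with 34.7% of its transgenic UMIs in 1 cell. Stmn1, which destabilises microtubules, stood at 329 CPM in transgenic against 125 CPM in wild-type members. The proliferation marker Mki67 had 35 UMIs in transgenic members, 80.0% of them in 1 cell, against 1 UMI in wild-type members. The BMP ligand Bmp2 stood at 53.9 CPM in transgenic against 18.6 CPM in wild-type members and was found in 12 and 11 cells. Of the other lists, the angiopoietin, junction, Notch, flow, haemostasis, hypoxia and Wnt lists had 0 genes past 2-fold in either direction. Across all measured genes 3.47% passed it.

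The feature 1A1_tg was added to the gene list, and its name is that of the transgene, though no source used here gives the sequence it stands for. It had 21 UMIs in 10 of 75 transgenic members (13.3%, 6.58% to 23.2%), with at most 7 UMIs in a cell, and 0 UMIs in 90 wild-type members, where a count of 0 allows a share of cells with a UMI of up to 3.33% (3 of 90). Its share was 4.55% of transgenic fibroblasts, 3.96% of transgenic macrophages and 46.8% of transgenic neurons. The 10 endothelial cells with a UMI had a median of 26694 UMIs, against 9296 UMIs in the cells without. Thinned to 3000 UMIs, 2 of 75 cells kept it (2.67%), against 29.1% of neurons. Omp, which should be absent from vessels, had UMIs in 33 of 75 transgenic and 34 of 90 wild-type members. A second extra feature, 10G4, gave UMIs in 3 of 75 transgenic and 12 of 90 wild-type members, and in 10.3% and 12.2% of neurons. The X inactivation RNA Xist, a check on the sex label, stood at 1090 CPM in transgenic against 1100 CPM in wild-type members.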

How the data were processed

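Single-cell 3′ libraries (10x, kit v3.1) of dissociated olfactory epithelium were deposited by the authors as raw UMI counts per gene and barcode, without a filter on cells. Cell Ranger 6.1.1 and build GRCm39 (mm39) come from the submitters' processing notes, while the matrix header names Cell Ranger 4. Members were chosen by the marker rule given in the report. Counts were summed over members per library and given as CPM with exact Poisson intervals. Ratios between libraries are log2 of transgenic divided by wild-type CPM, after adding 1 UMI to both sums, with binomial intervals given the total. The script was tested on simulated sums with Poisson counting error only. That test had no variation between cells, so it cannot judge the intervals of genes held mostly by 1 cell. A gene was called at 2-fold, or at 4-fold over other barcodes.

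Clusters came from scanpy 1.11.5 (totals scaled to 10000, 1000 variable genes without receptor, mitochondrial, ribosomal, Xist and added genes, 15 principal components, 10 neighbours, Leiden resolution 1). A cluster was named when the markers of 1 of 4 vessel lists exceeded the other members by a mean log2 of at least 1 (5 CPM added) with at least 3 markers 2-fold higher, unless 2 or more of its 10 leading genes belonged to another cell type. Doublets were not removed beyond the rule: Scrublet marked 0.309% of transgenic and 0.156% of wild-type barcodes and 0 members, too few to have worked.

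The members and lists were chosen with earlier results of these data known. Genes named are the markers, members of each list with the highest CPM, the largest ratios or a role in the text, the 10 largest ratios in each direction, the 15 highest ratios over other barcodes, leading genes of clusters and the genes with the highest CPM. UMI counts at the 3′ end are not scaled by gene length, and levels were not compared between genes. Some genes that this rule names are not reported here.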

Additional observations from a re-analysis of the deposited data

How the results depend on the processing

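The endothelial shares were close to the reported values in all 7 alternatives, between 3.40% and 4.42% of transgenic barcodes, and between 5.93% and 7.10% of wild-type barcodes. Thinned to 3000 UMIs, 17 genes were at least 2-fold higher, 19 at least 2-fold lower and 205 at least 4-fold over other barcodes, and with no filter beyond 1 UMI the counts were 1573, 1929 and 1780. Fewer genes reach the limit at lower depth and far more without it. Without members with RNA of other cell types, an alternative chosen after seeing the data like the 2 others that standardise clusters or leave out a gene's richest cell, 58 genes were higher. After thinning and at a mitochondrial limit of 5%, the venous and postcapillary-like share was 0% in both libraries, because no cluster met the rule for that name. The share named lymphatic-like was then 27.9% (19 of 68) of transgenic and 15.8% (12 of 76) of wild-type members after thinning, and 22.2% and 18.9% at the 5% limit. After thinning Ccl21a was in 3 transgenic members and Prox1 in 4, so most of the 19 cells lacked these markers and the name does not hold for them.

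Of 675 recomputed gene ratios, 539 were close to the reported value, 120 moved and 16 changed sign from a reported ratio of at least 2-fold. Sign changes of smaller ratios are not among the 16. The log2 ratio ran from -0.46 to 0.08 for Flt1, from -0.21 to 0.20 for Cldn5 and from -0.01 to 0.43 for Pecam1. Standardised to cluster shares, Slco1c1 was at -0.54, Prox1 at 0.64 and Mmrn1 at 0.38. This leaves out cluster 9, which held 94.3% of the transgenic Slco1c1 UMIs, so that change was fixed by construction, and for Slc38a5 the -0.18 stands for 0 against 0 UMIs and is no ratio. At the 5% limit, Krt14 was at -0.15, Msln at 1.44, Wfdc18 at 1.33 and Fabp4 at 0.20. Thinned, Arhgdig was at -0.42, Wfdc18 at 0.90, Fabp5 at -1.06 and Mmrn1 at 0.51. Without members with RNA of other cells, Msln was at 0.73 and Wfdc18 at 0.49, and without the richest cell at 0.56 and 0.19. The cause of the other changes was not tested. No paired analysis was possible because each group has 1 library and no result comes from a test. Depth limits genes near the minimum of 50 UMIs, such as Gm8797, whose interval ran from -4.75 to -2.01.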

Other observations

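Among genes of the circadian clock, a set chosen after its values were seen, 4 of 8 measured were at least 2-fold lower in transgenic endothelial cells (1.57% of all measured genes). Dbp, an output gene of the clock, had 14 UMIs in 10 of 75 transgenic members and 61 UMIs in 34 of 90 wild-type members, a log2 ratio of -2.22 (-3.25 to -1.44). Per3 stood at 15.7 CPM in transgenic against 47.3 CPM in wild-type members, Nr1d1 at 18.7 and 49.9 CPM, and Nr1d2 at 29.9 and 66.8 CPM, each more than 2-fold lower in transgenic members. Arntl, the clock's positive arm, stood at 29.9 CPM in transgenic against 14.4 CPM in wild-type members with too few UMIs to be measured, and Clock, Tef, Hlf and Per1 differed by less than 2-fold. In fibroblasts the log2 ratio was -0.09 for Dbp, -0.74 for Per3, -1.0 for Nr1d1 and -1.29 for Nr1d2, and in macrophages it was 0.36, -0.01, -0.46 and 0.05. In neurons it was -0.94 for Dbp, -1.49 for Per3, 0.20 for Nr1d1 and -0.74 for Nr1d2. The labels used here give no time of day for either animal.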
